A study of Saccharomyces cerevisiae with 6 samples.

Results

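The yeast genome is dense with genes, and the stretches between them are transcribed as well. The intervals described here carry names that begin with INT50 in the deposited feature table, and they were kept when no other feature of the same strand overlapped them by even 1 base. The rule kept 892 of 1159 INT50 features, out of 15753 features in the table. The values come from RNA co-immunoprecipitation followed by sequencing in which the antibody J2 captures RNA that is double-stranded (dsRNA). There were 3 J2 eluate libraries, holding RNA washed and recovered from the beads of the initial precipitation, and 3 J2 unbound libraries, holding the RNA still in solution after a further round with J2. Both groups came from total RNA of untreated Saccharomyces cerevisiae that the labels call wild type S288C, grown at 25 °C, and each unbound library is what J2 left of a yeast RNA sample, not an input. The wild type in the study's strain list is BY4741, an S288C derivative that carries deletions of the marker genes HIS3, LEU2, MET15 and URA3, so both groups would share them. The labels do not say whether the 3 replicates were separate cultures, while the study calls the samples behind this comparison biologically independent. Feature counts summed to between 19871214 and 43141091 in the eluates and between 18645818 and 27010153 in the unbound libraries.

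Transcription between genes starts mostly at promoters that fire in both directions, and many of the resulting RNAs are short-lived. Small nuclear and small nucleolar RNA genes (sn/snoRNAs, which serve splicing and the modification of ribosomal RNA) and many unstable RNAs end through Nrd1 and Nab3, a pair of proteins that bind GUAA and UCUU in the nascent RNA and recruit the nuclear exosome. tRNA genes are read by RNA polymerase III, and the Ty1 and Ty3 retrotransposons insert just upstream of them, leaving behind long terminal repeats (LTRs) that carry promoters of their own. Both strands of such a region can be transcribed, and a duplex can then form between the products.

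The table does not explain the name INT50, so its geometry was read from the coordinates. In 840 of the 892 intervals both edges lay exactly 50 bases from an annotated gene or another feature of the table on either strand, and in the other 52 intervals 1 edge did. The intervals are thus the gaps between annotations, trimmed by 50 bases at each side, and an unspliced read of 50 bases that touches one lies outside a feature that is 50 bases away. Lengths ran from 2 to 7795 bases with a median of 354, and 67 intervals were shorter than 50 bases. Of the 892, 465 lay on the plus strand and 427 on the minus strand. The nearest same-strand feature was exactly 50 bases away for 827 intervals, closer for 32, whose reads can reach into it, and farther for 33. The least distance was 1 base, in INT50-1167, INT50-1168 and INT50-1169, and INT50-1168 had 233, 276 and 670.0 normalised counts in the eluates, against 74.5, 51.4 and 23.2 in the unbound libraries. On the other side of the rule, INT50+1427 shared 7 bases with a same-strand feature and was left out. It had 202, 158 and 495 normalised counts in the eluates, against 25.3, 14.2 and 16.8 in the unbound libraries.

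The label holds for the table but not for every annotation of the reference genome. LTRs or transposons overlapped 202 of the 892 intervals, in 127 of them on the interval's own strand. A replication origin overlapped 68 intervals, a telomere 10, a centromere 1 and a tRNA gene 2. No interval shared a base with a protein-coding feature of the other strand, so the planned comparison with an opposite mRNA could not be made. Some other feature of the table lay opposite to 523 intervals, and in 380 cases that was an INT50 interval of the same start and end that was itself kept.

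The sequences of a few intervals show how little separates them from their neighbours. The first 3 lie beside sn/snoRNA genes and are transcribed away from them, the next 4 follow sn/snoRNA genes on the same strand, and the last 3 are the most reduced interval, the most enriched interval and an interval that begins inside an LTR. All are given in the sense of the interval's own strand from the sacCer3 reference sequence. In all but the last, capitals mark GTAA and TCTT, the DNA letters of the Nrd1 and Nab3 motifs, as read on that strand (both strands were searched), and in INT50+1652 they mark the 42 bases annotated as LTR.
INT50-79: acagcgaaacgaaataaa
INT50+970: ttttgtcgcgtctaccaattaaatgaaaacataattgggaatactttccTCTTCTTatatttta
INT50+791: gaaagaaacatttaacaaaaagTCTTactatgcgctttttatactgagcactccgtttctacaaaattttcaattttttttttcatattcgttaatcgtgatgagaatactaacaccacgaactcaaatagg
INT50-1433: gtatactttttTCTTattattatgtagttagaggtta
INT50+1790: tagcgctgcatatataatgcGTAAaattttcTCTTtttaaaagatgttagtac
INT50-1219: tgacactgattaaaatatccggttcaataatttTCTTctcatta
INT50+296: ttatgagcaaactgttta
INT50+679: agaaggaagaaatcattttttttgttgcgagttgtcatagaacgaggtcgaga
INT50+1395: aaagaacagaaatagaaaaaa
INT50+1652: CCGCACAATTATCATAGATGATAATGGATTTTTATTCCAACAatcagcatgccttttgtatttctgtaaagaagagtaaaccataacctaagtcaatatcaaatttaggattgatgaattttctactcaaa
INT50-79 (chrV:424631-424648, minus strand) has 18 bases, INT50+970 (chrXV:680916-680979, plus strand) has 64 and INT50+791 (chrVII:939722-939853, plus strand) has 132. INT50-1433 (chrIII:142278-142314, minus strand) has 37 bases, INT50+1790 (chrIV:1403092-1403144, plus strand) has 53, INT50-1219 (chrXII:794844-794887, minus strand) has 44 and INT50+296 (chrXIV:89356-89373, plus strand) has 18. INT50+679 (chrVII:319902-319954, plus strand) has 53 bases, INT50+1395 (chrXIII:917996-918016, plus strand) has 21 and INT50+1652 (chrIV:520792-520922, plus strand) has 131. Across the 12 measured intervals of 4 or more bases that follow a sn/snoRNA gene, TCTT occurred 16.6 times per kb on the interval's strand and 7.11 times per kb on the other. Over all 173 measured intervals of that length, TCTT occurred 5.55 and 6.16 times per kb on those strands. GTAA occurred 3.16 and 7.11 times per kb in the 12 intervals and 4.26 and 4.51 times per kb in the 173. TCTT was found in 91.7% of the 12 and in 86.7% of the 173, which are longer. Of all genome windows of 44 bases on both strands, 26.6% hold TCTT and 16.6% hold GTAA, and of all windows of 132 bases, 59.2% hold TCTT and 43.0% hold GTAA.

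More of the intervals were called enriched in the J2 eluate than reduced, but they did not move as a unit. A mean normalised count above 40 over the 6 libraries, the minimum of the study, was reached by 174 of the 892 intervals, and these are called measured here. limma's moderated test on log2(normalised count + 1), adjusted by Benjamini-Hochberg over all 15753 features, called 97 of the 174 enriched in the eluate and 37 reduced at an adjusted p under 0.05. Over all 10188 features above the minimum, 34.6% were called enriched and 48.0% reduced. Median log2 fold changes were 1.14 for the 174 intervals and -0.46 for the 10188 features. Median differences within libraries of the same number were 1.01, 0.80 and 1.56. All 3 eluates lay above all 3 unbound libraries in 100 of the 174 intervals and below them in 41, while this held for 35.4% and 49.2% of all features. The minimum itself favours intervals that differ, since 55 of the 174 passed it only through their eluate mean and 26 only through their unbound mean. Without a minimum, 404 of the 892 were called enriched and 124 reduced, beside 38.7% and 34.4% of all features, and their median was 1.10 against 0.28. INT50 features that overlap a same-strand feature had a median of 0.77 over 103 measured, with 51 enriched and 19 reduced. Cryptic unstable transcripts (CUTs) stood higher than the intervals, with a median of 2.27 over 372 measured, 315 enriched and 25 reduced. Protein-coding features, 5722 of the 10188, had a median of -1.39, with 458 enriched and 4257 reduced.

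The sign of a small change depends on the scaling. The median of all measured features was -0.46 when the size factors were kept as deposited, -0.30 under TMM, 0.45 after scaling to total counts and 0.85 with factors taken from nuclear protein-coding features (mRNA factors). The median of the 174 intervals was 1.14, 1.30, 2.03 and 2.43 in that order. Enriched calls made up 72.4%, 75.2%, 83.7% and 88.7% of the intervals' calls in the same order. Over all measured features they made up 41.85%, 44.8%, 61.0% and 70.7% of the calls. A size factor shifts all features of a library nearly alike, so the gap between the medians of intervals and all features hardly depends on the scaling. The share of all feature counts that fell on the 892 intervals needs no size factor. It was 0.32%, 0.367% and 0.45% in the eluates, against 0.0968%, 0.119% and 0.0882% in the unbound libraries, so the groups did not overlap. The ratio of the means was 3.75, with an exact two-sided permutation p of 0.1, the smallest that 3 against 3 libraries can give. It was 9.87 for nuclear intervals with an LTR or transposon, 5.35 for mitochondrial ones and 1.64 for the 643 other nuclear intervals.

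**Figure D1:**
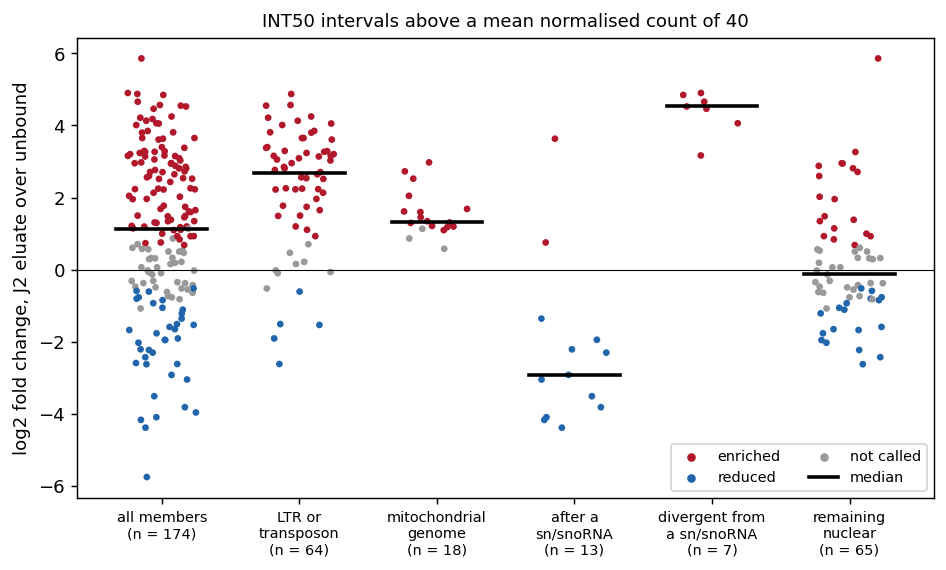
Log2 fold change of J2 eluate over unbound (y axis) for the measured INT50 intervals, in all and by group (x axis, number of intervals below each name). Each point is 1 interval, coloured by its call, and bars are medians: 2.68 for intervals with an LTR or transposon, -2.92 for those after a sn/snoRNA and 4.53 for those divergent from one.

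Fold changes differed with the position of an interval relative to its neighbouring protein-coding genes. Intervals with a gene of their own strand on both sides, so that they follow a 3' end and precede a start, numbered 236, of which 69 were measured, 30 enriched and 18 reduced (median log2 fold change 0.33). Intervals that precede a start only, next to a gene on the other strand, numbered 393, of which 53 were measured, 30 enriched and 11 reduced, with a median of 0.93. Intervals that follow a 3' end only numbered 84, of which 28 were measured, 18 enriched and 5 reduced, with a median of 1.44. Intervals opposite to both neighbouring genes numbered 162, of which 19 were measured, 14 enriched and 3 reduced, with a median of 2.22. Another 17 had no protein-coding feature of the table on 1 side, and all 5 measured ones were enriched. Over all measured features, 34.6% were enriched and 48.0% reduced. By class in the order given, 16, 19, 9, 8 and 3 measured intervals passed the minimum only through their eluates. Without a minimum, 82, 165, 44, 103 and 10 were enriched and 52, 48, 13, 10 and 1 reduced, beside 38.7% and 34.4% of all features. The medians were then 0.56, 1.01, 1.09, 1.95 and 1.54. These classes differ in what else they hold. Among the 65 measured nuclear intervals that hold no LTR or transposon and lie more than 100 bases from any tRNA or sn/snoRNA gene, medians were -0.45 for 32 intervals between genes of their strand, 0.31 for 21 before a start, 0.60 for 7 after a 3' end and 0.38 for 4 opposite to both.

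Of the 10 most reduced intervals, 7 lay just after sn/snoRNA genes. This group, and the one that follows, were formed after the values had been seen, so only the members' own tests from the fit over all features are given. Of 21 intervals that begin 50 bases after the 3' end of a sn/snoRNA gene of their strand, 13 were measured, of which 11 were reduced and 2 enriched (median log2 fold change -2.92). Of the 13, 9 passed the minimum only through their unbound libraries and 1 only through its eluates. Without a minimum, 18 of the 21 were reduced and 2 enriched, beside 34.4% and 38.7% of all features. The sn/snoRNAs themselves were reduced in 68 of 73 measured cases, with a median of -3.77. INT50+992, which follows SNR8 (a box H/ACA snoRNA) and precedes YTM1, had 9.34, 4.84 and 3.41 normalised counts in the eluates, against 186, 122 and 104 in the unbound libraries (log2 fold change -4.39 ± 0.41 (SE), adjusted p = 7.4e-06). INT50-1219, between SNR57 and SNR55 of a cluster of box C/D snoRNAs cut from 1 precursor, had 18.7, 13.3 and 11.1 in the eluates, against 268, 308 and 237 in the unbound libraries (log2 fold change -4.17 ± 0.28 (SE), adjusted p = 1.1e-06). In both intervals the lowest unbound library was more than 10 times the highest eluate.

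INT50-1220 lies in the same cluster, between the 3' end of the ribosomal protein gene RPS25B and SNR57. It had 8.36, 7.27 and 6.81 normalised counts in the eluates, against 125, 143 and 125 in the unbound libraries (log2 fold change -3.96 ± 0.29 (SE), adjusted p = 1.8e-06). INT50-1433, which follows the H/ACA snoRNA gene SNR33, had 13.3, 13.9 and 10.2 in the eluates, against 261, 225 and 201 in the unbound libraries (log2 fold change -4.10 ± 0.27 (SE), adjusted p = 9.5e-07). INT50+677, after the H/ACA gene SNR82, had 15.7, 12.7 and 26.4 in the eluates, against 225, 205 and 378 in the unbound libraries (log2 fold change -3.82 ± 0.35). No eluate reached an unbound library in any of these intervals. INT50-684 (after SNR39B and before RPL7A), INT50-1150 (after SNR79) and INT50+1790 (after SNR13) had log2 fold changes of -3.51 ± 0.32, -3.05 ± 0.35 and -2.92 ± 0.30 (SE), with adjusted p = 6.0e-06, 3.1e-05 and 1.6e-05 from limma. The 18 bases of INT50+296, after the C/D gene SNR40, had 49.1, 29.7 and 41.7 normalised counts in the eluates, against 213, 168 and 179 in the unbound libraries. INT50-1658 (after SNR47), INT50-1217 (after SNR61) and INT50+1304 (after SNR78) were reduced as well, by 2.30, 1.95 and 1.36 on the log2 scale.

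The 2 exceptions lie in 1 locus. SNR67 and SNR53 are box C/D snoRNA genes cut from a shared precursor, and they are 2 of the 3 sn/snoRNAs that were enriched. SNR67 had 1913, 1303 and 1297 normalised counts in the eluates, against 1047, 937 and 973 in the unbound libraries (log2 fold change 0.59 ± 0.19 (SE), adjusted p = 0.019). INT50+15, the 167 bases between the pair, had 1717, 1184 and 1086 in the eluates, against 847, 737 and 737 in the unbound libraries (log2 fold change 0.75 ± 0.20 (SE), adjusted p = 0.0069). INT50+16, the 2 bases that remain after SNR53 once both sides are trimmed, had 74.7, 67.2 and 101 in the eluates, against 8.93, 3.54 and 5.15 in the unbound libraries (log2 fold change 3.63 ± 0.40). Ahead of SNR67, INT50+14 rose by 0.73 on the log2 scale (adjusted p = 0.0098 with limma). Across the 13 intervals, the fold change of interval and sn/snoRNA had a Pearson correlation of 0.91 and a Spearman correlation of 0.74, as a description over points that share the same 6 libraries.

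**Figure D2:**
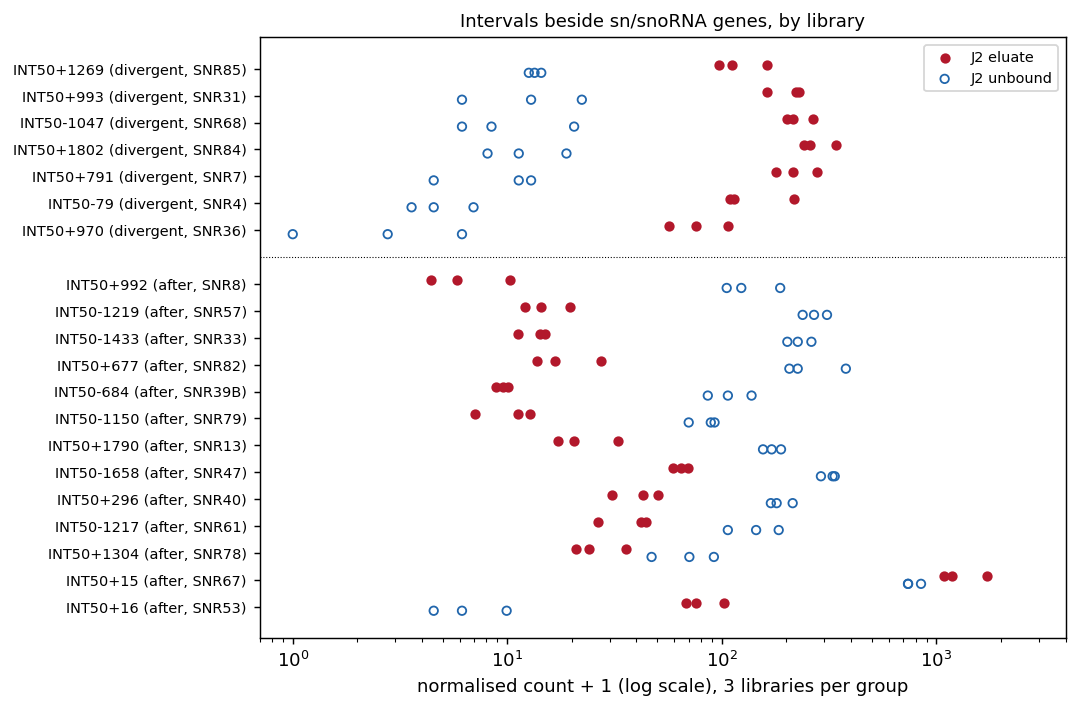
Normalised counts plus 1 on a log scale (x axis) in each of the 3 J2 eluates (filled) and 3 J2 unbound libraries (open) for the measured intervals divergent from a sn/snoRNA gene (upper 7) and after one (lower 13). Eluates lie to the right of all unbound libraries in the upper 7 rows, to their left in the next 11, and to their right in INT50+15 and INT50+16.

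On the other strand beside the same kind of gene the picture was turned round. Intervals that start 50 bases upstream of a sn/snoRNA gene and are transcribed away from it numbered 28, of which 7 were measured. All 7 were enriched, with log2 fold changes between 3.17 and 4.90 and a median of 4.53, and 5 of them are among the 10 most enriched intervals. All 7 passed the minimum only through their eluates, so that one not enriched could not have been measured at their unbound levels. Without a minimum, limma called 28 of 28 enriched, beside 38.7% of all features. On the other strand within 100 bases of the 3' end of a sn/snoRNA gene lay 16 intervals, none of them measured. Without a minimum, 15 of the 16 were enriched and none reduced, with a median of 3.24, against 3.94 for the 28. INT50-79, beside the C/D snoRNA gene SNR4, had 114, 108 and 215 normalised counts in the eluates, against 5.96, 3.54 and 2.58 in the unbound libraries (log2 fold change 4.85 ± 0.41 (SE), adjusted p = 4.0e-06). INT50+970, beside the H/ACA gene SNR36, had 55.5, 74.5 and 106 in the eluates, against 0, 1.77 and 5.15 in the unbound libraries (log2 fold change 4.90 ± 0.63 (SE), adjusted p = 6.7e-05). Its log2 fold change was 4.22 without unbound 1 and 5.53 without unbound 3. INT50+791, beside SNR7, the gene of the U5 spliceosomal RNA, and ahead of PET54, had 213, 178 and 278 in the eluates, against 11.9, 3.54 and 10.3 in the unbound libraries (log2 fold change 4.66 ± 0.42 (SE), adjusted p = 6.0e-06). The unbound values of these intervals are a few reads each, since 3 reads correspond to between 3.87 and 5.31 normalised counts in an unbound library.

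INT50+1802, beside the H/ACA gene SNR84, had 240.4, 256 and 341 normalised counts in the eluates, against 17.9, 7.09 and 10.3 in the unbound libraries (log2 fold change 4.53 ± 0.35 (SE), adjusted p = 2.3e-06). INT50-1047, beside the C/D gene SNR68, had 213, 199 and 266 in the eluates, against 7.44, 19.5 and 5.15 in the unbound libraries (log2 fold change 4.46 ± 0.43 (SE), adjusted p = 9.2e-06). INT50+993 is divergent from SNR31 and at the same time precedes SNR5 on its own strand, and it was enriched by 4.06 on the log2 scale, while SNR31 and SNR5 fell by 3.72 and 4.39. INT50+1269, divergent from SNR85, had the least change, 3.17. The sn/snoRNAs beside the 7 intervals were all reduced, so that the interval and the gene 50 bases away on the other strand had fold changes of opposite sign. Ahead of a sn/snoRNA gene on its own strand the result was mixed, with 4 of 7 measured intervals enriched and 3 reduced (median 0.73). Without a minimum, 6 of 21 were enriched and 9 reduced, with a median of -0.82. INT50-161, ahead of SNR161, had 216, 196 and 202 normalised counts in the eluates, against 11.9, 14.2 and 6.44 in the unbound libraries, while SNR161 fell by 4.54 on the log2 scale. The counts of calls among the 13 intervals after sn/snoRNAs were the same with DESeq2, with edgeR, with the replicate block and without any single library. After scaling to total counts and with the mRNA factors, 10 and 9 of the 13 intervals after a sn/snoRNA were reduced.

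**Figure D3:**
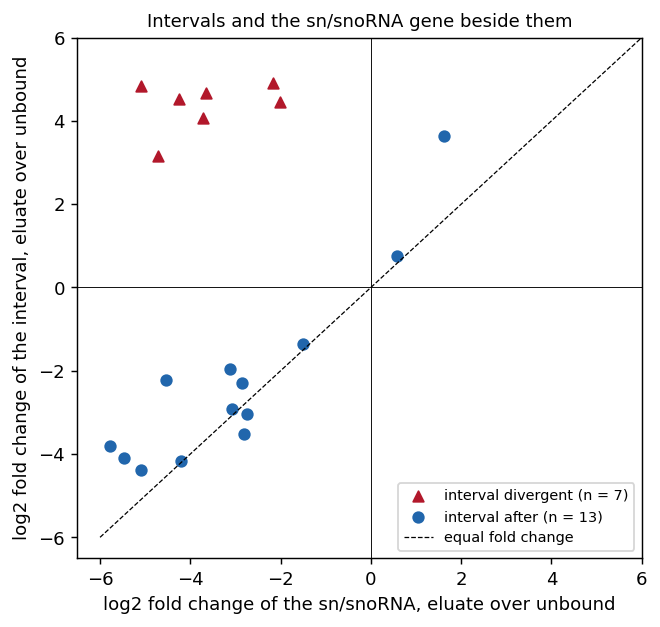
Log2 fold change of the interval (y axis) against that of the sn/snoRNA gene beside it (x axis), both J2 eluate over unbound. The 13 intervals after a sn/snoRNA on its strand (circles) rise with it and mostly lie above the line of equal fold change. The 7 divergent intervals (triangles) all lie above 3 while their sn/snoRNAs lie below -2.

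The most reduced interval of all follows a tRNA gene. INT50+679 covers the 53 bases between tH(GUG)G2, a histidine tRNA gene, and SUT114, a stable unannotated transcript of the same strand. It had 7.86, 2.42 and 3.41 normalised counts in the eluates, against 279.9, 267 and 278 in the unbound libraries (log2 fold change -5.76 ± 0.38 (SE), adjusted p = 9.7e-07), so every unbound library was above 200 while no eluate reached 10. tH(GUG)G2 as counted had 3.44, 0.61 and 1.70 in the eluates, against 61.0, 54.9 and 65.7 in the unbound libraries, and SUT114 had 27.0, 20.6 and 11.9 against 168, 158 and 137. Of 32 nuclear intervals that follow a tRNA gene, 6 were measured, 3 enriched and 1 reduced, beside 34.6% and 48.0% of all measured features. With no minimum applied, 3 of the 32 were enriched and 14 reduced, beside 38.7% and 34.4% of all features.

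Upstream of tRNA genes the intervals were mostly transposon remains. Of 131 nuclear intervals that lie within 100 bases of the 5' end of a tRNA gene, 115 held an LTR or transposon, against 11 of 61 at the 3' end. Measured intervals that precede a tRNA gene on its own strand numbered 27, with 20 enriched and 4 reduced (median log2 fold change 2.52). Of these 27, 13 passed the minimum only through their eluates and 4 only through their unbound libraries. Measured intervals divergent from a tRNA gene numbered 12, with 10 enriched and a median of 2.95, and 6 of these passed the minimum only through their eluates. Over all measured features, 34.6% were enriched and 48.0% reduced. Without a minimum, 42 of 70 and 50 of 64 were enriched and 8 and 0 reduced, beside 38.7% and 34.4% of all features. All 12 held an LTR or transposon, as did 26 of the 27.

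Over all nuclear intervals with an LTR or transposon, 64 of 202 were measured, of which 51 were enriched and 5 reduced, with a median of 2.68, and without a minimum 134 of the 202 were enriched and 12 reduced. Of the 64, 28 passed the minimum only through their eluates and 4 only through their unbound libraries. The 5 reduced were INT50+1193, INT50+1520, INT50+647, INT50+782 and INT50-568. The 92 other nuclear intervals that were measured split into 31 enriched and 32 reduced (33.7% and 34.8%, beside 34.6% and 48.0% of all features). Their median was -0.31, against -0.46 over all features. After scaling to total counts it became 0.59, against 0.45 over all features. By LTR direction, the median was 0.54 for 16 intervals whose LTRs all lie on the interval's strand, 2.96 for 23 whose LTRs all lie on the other strand and 3.16 for 25 with LTRs on both. In that order, 3, 12 and 13 passed the minimum only through their eluates and 3, 1 and 0 only through their unbound libraries. With no minimum applied, the medians were 1.00, 2.23 and 2.85. The share of 50-base windows found only once in the genome moved with it too. Of 48 measured LTR intervals with under 90% of such windows, 44 were enriched and 1 reduced, with a median of 2.88, while of 16 with 90% or more, 7 were enriched and 4 reduced, with a median of 0.59. Of the 48, 24 passed the minimum only through their eluates and 0 only through their unbound libraries, and of the 16, 4 and 4. With no minimum applied, 104 of 130 and 30 of 72 were enriched and 2 and 10 reduced, with medians of 2.43 and 0.97. How reads with several matches were placed is not given in the sources used here, and its part in the result was not tested. Of 101 measured members whose windows were all unique, 35 were enriched and 34 reduced. These shares of 34.7% and 33.7% stand beside 34.6% and 48.0% over all features. The members' median was -0.026, and became 0.14 under TMM and 0.87 after scaling to total counts. Over all features the median was -0.46, -0.30 and 0.45 in that order. Without a minimum, 247 of 676 such intervals were enriched and 117 reduced, beside 38.7% and 34.4% of all features.

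INT50+1652, printed above with its LTR bases in capitals, is one whose windows are all unique. It had 134, 124 and 209 normalised counts in the eluates, against 5.96, 3.54 and 7.73 in the unbound libraries (log2 fold change 4.55 ± 0.37 (SE), adjusted p = 3.2e-06). INT50-957, an LTR interval of 506 bases, had 223, 264 and 373 in the eluates, against 19.4, 24.8 and 5.15 in the unbound libraries (log2 fold change 4.25 ± 0.49 (SE), adjusted p = 3.4e-05), and 3.62 without unbound 3. INT50-1441 lies 50 bases after FEN2, the gene of a pantothenate transporter, and 46.3% of its windows are unique. It had 3052, 2598 and 4406 in the eluates, against 244, 241 and 213 in the unbound libraries, while FEN2 itself had 592, 495 and 470.0 against 2293, 2315 and 2133. The interval was thus enriched and the mRNA before it reduced, a difference of 5.93 ± 0.26 on the log2 scale (SE, adjusted p = 1.6e-06 with limma). INT50-156, an LTR interval 50 bases after the glutaredoxin gene GRX7, had 46.7, 53.9 and 154 in the eluates, against 13.4, 0 and 5.15 in the unbound libraries. Its difference from GRX7 was 7.19 ± 0.83 (SE, adjusted p = 8.8e-05 with limma), and eluate 3 was far above the other eluates. Its own log2 fold change was 4.05 with all libraries, 2.98 without unbound 2 and 4.90 without unbound 1.

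The mitochondrial genome gave 47 intervals, of which 18 were measured, 15 enriched and none reduced (median log2 fold change 1.33), beside 34.6% and 48.0% of all measured features. Of the 18, 4 passed the minimum only through their eluates and 0 only through their unbound libraries. With no minimum applied, 35 of the 47 were enriched and 0 reduced, beside 38.7% and 34.4% of all features. The lowest log2 fold change of the 18 was 0.58, in INT50+848, so with limma none was reduced at an unadjusted p under 0.05 either. Yeast mitochondrial genes are read as long transcripts of mainly 1 strand, and 15 of the 18 lay on that plus strand. INT50+825, between ATP8 and ATP6 (subunits of the ATP synthase), had 3151, 2701 and 1826 normalised counts in the eluates, against 518, 1061 and 398 in the unbound libraries (log2 fold change 2.05 ± 0.34 (SE), adjusted p = 4.0e-04). ATP6 had a fold change of the same size, 2.02 ± 0.49 (SE, adjusted p = 0.0038 with limma). Unbound 2 was the highest unbound library in 16 of the 18 intervals, and the eluates lay above every unbound library in 14. Leaving out 1 library gave between 12 and 17 enriched. On the minus strand, INT50-850 had 274, 213 and 324 in the eluates, against 17.9, 85.0 and 23.2 in the unbound libraries (log2 fold change 2.97 ± 0.50 (SE), adjusted p = 4.1e-04). The reference places the threonine tRNA gene tT(UAG)Q2 inside it on its own strand.

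Both strands of an interval could be compared at 190 places where the 2 intervals have the same start and end. Both strands were measured at 14 of them, 1 strand at 75 and neither at 101. Of the 14, 9 held an LTR or transposon, 2 were mitochondrial and 3 were other nuclear intervals. Both strands were enriched at 10, 1 strand at 3 and neither at 1. The strand with the lower mean over the 6 libraries had the larger fold change at 7 of the 14. The share of an interval's counts on its weaker strand was taken anew in each library, so the strand could switch between libraries. Its median was 30.6%, 32.3% and 38.8% in the eluates, against 34.6%, 28.1% and 26.0% in the unbound libraries, so the groups overlap. Both values cover the 14 places only. The 75 places where 1 strand stayed at or below the minimum are left out, so strands with few counts are not represented. As a measure of strand specificity, numbered antisense features inside 162 abundant mRNAs held between 0.296% and 0.647% of the mRNA counts in the eluates, against 0.0413% to 0.122% in the unbound libraries.

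The interval with the highest counts on both strands lies beside a Ty1 element on chromosome XIII (chrXIII:378425-379253). Its minus strand, INT50-1323, had 8761, 6589 and 7716 normalised counts in the eluates, against 1072, 839.7 and 720.4 in the unbound libraries (log2 fold change 3.14 ± 0.20 (SE), adjusted p = 7.3e-07). Its plus strand, INT50+1323, had 581, 642 and 433 in the eluates, against 58.1, 69.1 and 20.6 in the unbound libraries (log2 fold change 3.61 ± 0.40 (SE), adjusted p = 2.6e-05). INT50-1323 alone took between 10.1% and 12.9% of all member counts in the eluates, against 2.14% to 3.13% in the unbound libraries. The next place, 61 bases after the kinase gene KCC4 on chromosome III, had the reverse order of strands. INT50+1417 had 3365, 3443 and 5348 in the eluates, against 736, 608 and 399 in the unbound libraries, and INT50-1417 had 124, 161 and 294 in the eluates, against 7.44, 12.4 and 11.6 in the unbound libraries. Their log2 fold changes were 2.81 ± 0.26 and 4.01 ± 0.38 (SE). Between a leucine tRNA gene and a Ty1 element on chromosome XII, INT50+1184 had 731, 620.1 and 1017 in the eluates, against 29.8, 21.3 and 25.8 in the unbound libraries (log2 fold change 4.87 ± 0.25 (SE), adjusted p = 3.3e-07). Opposite to it, INT50-1184 had 2695, 2143 and 2563 in the eluates, against 517, 430.5 and 338 in the unbound libraries (log2 fold change 2.54 ± 0.20 (SE), adjusted p = 2.4e-06). In all 6 of these intervals every eluate was above every unbound library, and between 69.0% and 81.4% of the windows of each place are unique. INT50+535, between a pair of Ty1 elements on chromosome XVI, had 668, 578 and 563 in the eluates, against 47.6, 19.5 and 15.5 in the unbound libraries (log2 fold change 4.57 ± 0.37 (SE), adjusted p = 3.1e-06), and 96.1% of its windows are unique.

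**Figure D4:**
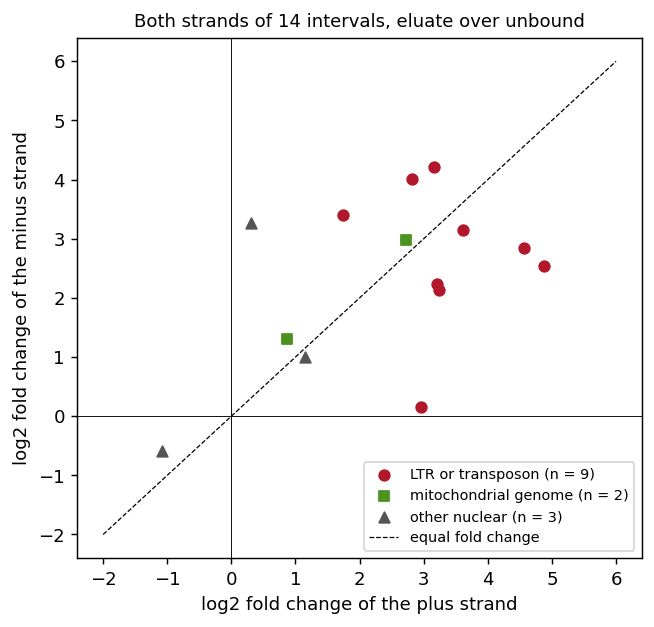
Log2 fold change of the minus strand (y axis) against the plus strand (x axis), J2 eluate over unbound, at the 14 places where both strands of an interval were measured. Points in the upper right are enriched on both strands, and the 1 point below 0 on both axes is the place between MEP2 and AAH1, where only the minus strand was called.

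At 2 of the 5 places with the highest counts the strands did not match. On chromosome XIII, INT50-1394 had 211, 243 and 293 normalised counts in the eluates, against 22.3, 23.0 and 29.6 in the unbound libraries (log2 fold change 3.26 ± 0.25 (SE), adjusted p = 2.4e-06). Its other strand, INT50+1394, had 852, 863 and 563 in the eluates, against 628, 597 and 575 in the unbound libraries, and did not pass the test (log2 fold change 0.31 ± 0.20, adjusted p = 0.18 with limma). It passed without eluate 3 (0.52, adjusted p = 0.010 with limma) and was 1.23 after scaling to total counts. Between MEP2 (an ammonium permease gene) and AAH1 (an adenine deaminase gene), INT50+329 had 167, 325 and 480.2 in the eluates, against 646, 4023 and 94.1 in the unbound libraries. Unbound 2 was far above every other library, and AAH1 did not share this, with 5275, 4745 and 6086 in the eluates, against 5424, 5343 and 3915 in the unbound libraries. Without unbound 2 the log2 fold change of INT50+329 was 0.26, against -1.08 with it, and neither passed the test. Without unbound 3 it was -2.44 (adjusted p = 0.015 with limma). INT50-329 had 511, 574 and 747 in the eluates, against 739, 1169 and 866 in the unbound libraries (log2 fold change -0.59 ± 0.22 (SE), adjusted p = 0.034), and its call was lost under TMM and in 4 of the 6 fits without a library. Scaling to total counts and the mRNA factors turned its sign, to 0.33 and 0.73.

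Intervals without repeats or small RNA genes lay on both sides of 0. Of the 65 such nuclear intervals, 19 were enriched and 18 reduced (29.2% and 27.7%, beside 34.6% and 48.0% of all features). Of the 65, 13 passed the minimum only through their eluates and 10 only through their unbound libraries. The median of the 65 was -0.13. Scaling turned the sign of this median, with 0.03 under TMM, 0.77 after scaling to total counts (31 enriched and 8 reduced) and 1.17 with the mRNA factors (43 enriched and 4 reduced). With total counts and the mRNA factors, enriched calls made up 79.5% and 91.5% of their calls, beside 61.0% and 70.7% over all features. The intervals named in this paragraph were chosen after their values had been seen. INT50-18 lies 50 bases after GLY1, the gene of threonine aldolase, and had 577, 406 and 549 normalised counts in the eluates, against 2431, 2296 and 2394 in the unbound libraries (log2 fold change -2.23 ± 0.18 (SE), adjusted p = 2.9e-06). GLY1 fell by 2.43 on the log2 scale. INT50-1872 follows the ribosomal protein gene RPL8A and had 832, 562 and 746 in the eluates, against 2089, 2044 and 2546 in the unbound libraries (log2 fold change -1.65 ± 0.19 (SE), adjusted p = 3.4e-05), while RPL8A fell by 1.39. INT50+1221 precedes FKS1, which encodes the glucan synthase of the cell wall, and had 433, 289 and 381 in the eluates, against 1148, 1203 and 1366 in the unbound libraries (log2 fold change -1.77 ± 0.19 (SE), adjusted p = 2.2e-05), while FKS1 fell by 1.89. Opposite in sign to the gene that follows it was INT50+363 ahead of HHF2, a histone H4 gene, with 127, 169.6 and 106 in the eluates, against 16.4, 14.2 and 24.5 in the unbound libraries, while HHF2 fell by 4.21. INT50-190 ahead of TPS1, a trehalose synthesis gene, had 102, 87.2 and 152 in the eluates, against 17.9, 31.9 and 37.4 in the unbound libraries, while TPS1 fell by 1.65.

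Each interval was then set against the mRNA before it, as the difference, within each library, between a feature and the nearest protein-coding feature that ends at most 1000 bases upstream on its strand. Scaling cancels in this difference for features far above the added count of 1, but not for intervals with few counts. Of 82 intervals with such an mRNA, both measured, 46 stood higher than the mRNA and 7 lower with limma, beside 52.1% and 23.9% of all 4333 features with such a partner. The median difference was 1.03 for the 82 and 0.82 for the 4333. By position it was 2.31 for 23 intervals that follow a 3' end only and 0.49 for 54 between genes of their strand. Of 28 nuclear intervals without an LTR that begin at most 100 bases after the mRNA, 9 were higher and 1 lower, and the median difference was 0.19, whereas of 24 with an LTR, 19 were higher and 2 lower and the median was 2.38. Across those 28, the log2 fold changes of interval and mRNA had a Spearman correlation of 0.71 and a Pearson correlation of 0.61, a description over points from the same 6 libraries. For 54 intervals without an LTR that end at most 100 bases before an mRNA, the Spearman correlation was 0.35.

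**Figure D5:**
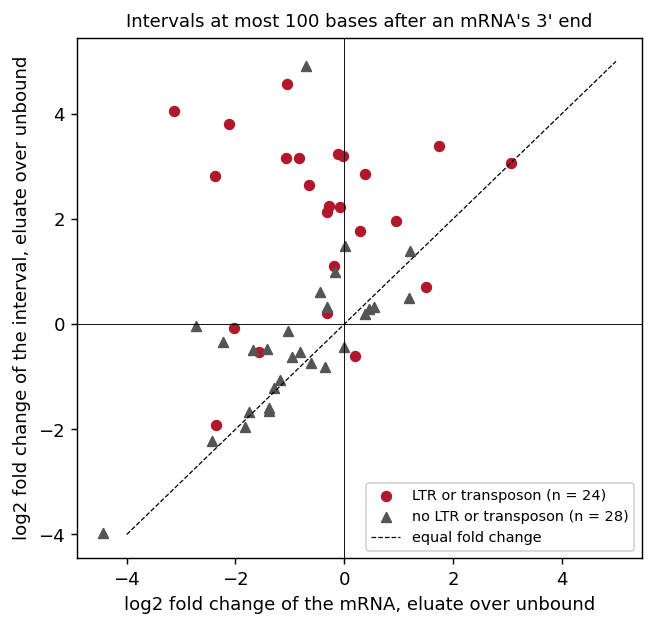
Log2 fold change of nuclear intervals (y axis) against that of the mRNA whose 3' end lies at most 100 bases before them (x axis), both J2 eluate over unbound. The 28 intervals without an LTR or transposon (triangles) mostly lie near the line of equal fold change, and most of the 24 with one (circles) lie above it.

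The largest differences in either direction came from intervals already described. INT50-156, INT50-1441 and INT50+535 stood highest above their upstream mRNA, by 7.19, 5.93 and 5.62 on the log2 scale. The upstream mRNA of INT50+535 is YPR158W-B, the coding feature of a Ty1 element. The 3 lowest all follow a snoRNA gene that lies between them and the mRNA. INT50-1658 was -3.31 from NRG1, the gene of a transcriptional repressor that was itself enriched, INT50-684 was -2.06 from MPS2 and INT50-1150 was -1.70 from REA1 (adjusted p = 4.7e-06, 6.9e-05 and 0.0025 with limma).

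The most enriched interval, INT50+1395, has 21 bases and overlaps the replication origin ARS1333 near the right end of chromosome XIII. It had 107, 96.9 and 45.1 normalised counts in the eluates, against 1.49, 0 and 0 in the unbound libraries (log2 fold change 5.86 ± 0.54 (SE), adjusted p = 7.1e-06). The unbound value is 1 read in all, against 431 in the eluates, so the ratio of 178 has a counting interval of 31.9 to 7064 (exact, 95%, counting error only). It sits 50 bases after antisense3497 and 50 before antisense3498, numbered antisense RNAs of its own strand. antisense3497 had 635, 503 and 494 in the eluates, against 81.9, 70.9 and 45.1 in the unbound libraries. INT50+1544, ahead of the ribosomal protein gene RPL43B, completes the 10 most reduced, with 17.7, 16.4 and 15.3 in the eluates, against 124, 120.5 and 81.2 in the unbound libraries (log2 fold change -2.62 ± 0.30 (SE), adjusted p = 2.7e-05).

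Counts per kb singled out very short intervals, which are counted through reads longer than themselves. The 5 highest means per kb were those of INT50+16 with 2 bases, INT50+922 with 4, INT50+825 with 226, INT50+296 with 18 and INT50+15 with 167. INT50+922, between IRC11 and RTS1, had 105, 72.7 and 73.2 normalised counts in the eluates, against 52.1, 51.4 and 113 in the unbound libraries, and the groups overlapped (log2 fold change 0.29 ± 0.35, adjusted p = 0.47 with limma), while it was 1.19 and called enriched after scaling to total counts. Of the measured intervals, 11 were shorter than 50 bases. The remaining 718 intervals stayed at or below the minimum, with the nearest at 39.97, and of these 307 were called enriched and 87 reduced.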

How the data were processed

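Values came from J2 eluate and J2 unbound RNA-seq libraries (n = 3 each). The authors aligned reads to sacCer3 with STAR, counted them with featureCounts (Subread 1.5.0-p1) and deposited a normalised count signal per feature, the read count over 1 DESeq2 size factor per library (DESeq2 1.24.0, R 3.6.1). The strand setting and the treatment of reads with several matches are not given in the sources used here. The authors' fold changes and p-values in the same table were not used. Dividing out the size factors gave whole reads for 100% of values (tolerance 0.006), and 3 reads equal 1.47 to 2.55 normalised counts in an eluate.

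Members were found from the deposited coordinates and placed on the R64 (sacCer3) reference and its annotation, whose ends matched the table in 99.9% of 5811 shared coding genes. limma 3.58.1 (R 4.3.3; lmFit, eBayes with trend) was fitted to log2(normalised count + 1) over all 15753 features with no covariate, with Benjamini-Hochberg adjustment and calls counted above a mean of 40. The count minimum of 40 is the study's. The difference from the upstream mRNA was fitted in the same way over all features with such a partner. The fit was also run on simulated counts with a fixed dispersion and few changed features, a simpler setting than these data. DESeq2 1.42.0 and edgeR 4.0.16 on the recovered reads, TMM, total count and mRNA scaling, pseudocounts of 0.5 and 10, no minimum, the replicate block and leaving out each library were alternatives. Restricting the set to intervals with unique 50-base windows, leaving out libraries for the share of counts, and counting calls in the groups by neighbour without a minimum, were chosen after seeing the data. Deviations from the group mean were compared between eluate and unbound libraries over features above a mean of 40. Their correlations were 0.228, 0.321 and 0.299 for libraries of the same number and between -0.368 and 0.125 for unlike numbers. These weak values do not establish that the numbers pair the samples, and the main fit does not use a pairing.

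Named intervals were the 10 most enriched and 10 most reduced measured ones, the 5 highest means per kb, the 5 highest places with both strands measured, and the 3 largest and 3 smallest differences from an upstream mRNA. The members, groups and lists were chosen with earlier results of these data known. Counting intervals cover counting error only.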

Additional observations from a re-analysis of the deposited data

How the results depend on the processing

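With no minimum on the mean, 404 of the 892 intervals were called enriched and 124 reduced, and 186 stood higher and 40 lower than an upstream mRNA. Scaling to total counts gave 23 reduced intervals with a median log2 fold change of 2.03, and the mRNA factors gave 17 with a median of 2.43. Restricting the set to intervals whose windows are all unique left 35 of 101 enriched (34.7%, beside 34.6% of all features) and turned the median to -0.026. An upstream limit of 200 bases left 4 intervals lower than their mRNA. The fit with the replicate block, which treats libraries of the same number as pairs, called 99 enriched and 40 reduced, and 169 of 174 intervals had the same call as without it. It changed the call of none of the named intervals.

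Leaving out each library in turn gave 90 to 98 enriched, 32 to 38 reduced, a median of 0.88 to 1.25, 40 to 45 intervals higher and 6 to 8 lower than their upstream mRNA, and a ratio of the shares of counts of 3.39 to 4.10. Of the 37 named intervals, 33 changed neither direction nor call in any of 14 alternatives, the exceptions being INT50+329, INT50-329, INT50+922 and INT50+1394. INT50+329 was 0.24 with the mRNA factors and 0.26 without unbound replicate 2, and without unbound replicate 3 it was -2.44. edgeR called it reduced (-2.29, adjusted p = 0.048), while its adjusted p lay between 0.015 and 0.90 over all alternatives. INT50-329 was 0.33 after scaling to total counts and 0.73 with the mRNA factors. The cause was not tested. Depth limits the intervals at or below 40, where 3 reads in an unbound library already equal 3.87 to 5.31 normalised counts.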
